A study of Mus musculus with 13 samples.

Results

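The TREM2 receptor signalling chain was followed through 9 mouse genes. They were the receptor gene Trem2, its adaptor gene Tyrobp, the kinase genes Syk, Lyn and Btk, and the effector genes Plcg2 and Vav1. The phosphatase gene Inpp5d and the receptor gene Cd33 were listed as 2 inhibitory partners. The genes were taken from a fixed list of names and matched by Ensembl identifier, which found all 9 among the 55536 genes in each library. Expression was measured by RNA sequencing, named mRNAseq in the library titles, of total RNA from the frontal cortex in 13 mouse libraries. Wild-type B6SJLF1/J mice gave 4 libraries at 6 months and 3 at 11 months, and 5XFAD mice gave 3 libraries at each age. 5XFAD is a transgenic line in which mutated human transgenes, among them APP, are driven by Thy1 regulatory sequence, which is active in neurons. The genes described here are not among the transgenes, and whether the line differs at their loci was not tested. The transgenes were not analysed here. The labels do not say that each library is a separate animal. The p-values therefore rest on the variation among these libraries alone, and some of it may be technical.

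TREM2 is a surface receptor of microglia, the macrophages that live in brain tissue, and binds lipids, lipoproteins and amyloid. It has no signalling tail of its own and passes its signal through TYROBP (also called DAP12), whose activation motif is phosphorylated by Src family kinases such as LYN and then recruits the kinase SYK. SYK activates phospholipase C gamma 2 (PLCG2), the Tec kinase BTK and the Rac exchange factor VAV1. The lipid phosphatase SHIP1, encoded by Inpp5d, and, in humans, the sialic acid receptor CD33 oppose the signal. Human TREM2, PLCG2, INPP5D and CD33 stand among the loci linked to Alzheimer's disease risk.

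The sequence just upstream of the gene start is shown for 3 of the 5 members that hold the 6-base core of binding sites for PU.1. PU.1 is the macrophage transcription factor encoded by Spi1. Each line gives 250 bases ending at the base before the RefSeq gene start (GRCm38.p6), 5′ to 3′ on the plus strand, which is the strand of the gene. Capitals mark the core, GAGGAA, or TTCCTC where it lies on the opposite strand.
Trem2, chr17:48346151-48346400: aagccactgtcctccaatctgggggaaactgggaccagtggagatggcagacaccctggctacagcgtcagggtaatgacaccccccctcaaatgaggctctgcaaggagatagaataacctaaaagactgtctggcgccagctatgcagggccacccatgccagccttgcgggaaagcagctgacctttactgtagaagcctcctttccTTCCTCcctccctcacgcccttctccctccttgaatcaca
Inpp5d, chr1:87620062-87620311: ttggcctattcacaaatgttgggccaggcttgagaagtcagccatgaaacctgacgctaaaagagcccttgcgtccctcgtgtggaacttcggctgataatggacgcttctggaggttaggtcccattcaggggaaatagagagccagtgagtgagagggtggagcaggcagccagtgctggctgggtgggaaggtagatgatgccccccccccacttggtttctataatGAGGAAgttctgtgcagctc
Vav1, chr17:57278850-57279099: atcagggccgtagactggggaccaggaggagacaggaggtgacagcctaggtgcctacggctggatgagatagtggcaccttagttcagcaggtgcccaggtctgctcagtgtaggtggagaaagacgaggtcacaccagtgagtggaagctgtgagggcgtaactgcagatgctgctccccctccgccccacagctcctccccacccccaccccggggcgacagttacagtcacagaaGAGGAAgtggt
The core begins 40 bases before the start of Trem2, 20 before that of Inpp5d and 11 before that of Vav1. Of the 7 members with a window in the RefSeq table, 5 held the core on either strand: these 3, Cd33, and Syk in 1 of its listed starts. In Cd33, which is not shown, the core begins 226 bases before the start, and in Syk 9 bases before that 1 start. Plcg2 and Btk held none in the window. Over all genes listed there, 25.9% held the core in at least 1 window of the same length, as did 5 of 11 microglia marker genes. The match is a description of letters and does not show binding.

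Library totals ran from 23618289 to 26615772 counts, and the genes passed a filter on low counts in all 9 cases, among 17483 genes tested. The defining markers of cortex were present in every library, with summed excitatory neuron markers between 2660 and 6020 CPM (TMM-scaled counts-per-million). Wild-type replicate 1 at 6 months stood apart by Ttr, a choroid plexus transcript. Ttr stood at 2912 CPM there, against at most 30.8 CPM in the other libraries. The 5 striatal markers summed to 939 to 2260 CPM in wild type and 448 to 1340 CPM in 5XFAD at 6 months. At 11 months the sums were 225 to 1790 and 234 to 582 CPM. Their median log2 difference was -0.57 and -1.11 for genotype at 6 and 11 months. For age it was -0.89 in wild type and -1.21 in 5XFAD. Of these markers 0 were called, and the part of striatal tissue in the results was not tested. Females, read from Xist above 100 CPM, numbered 2 of 4 and 1 of 3 in wild type at 6 and 11 months, and 0 of 3 and 2 of 3 in 5XFAD. The 17 microglia markers, which include Csf1r and Cx3cr1, summed to 413 to 418 CPM in wild type and 784 to 848 CPM in 5XFAD at 6 months. At 11 months they summed to 427 to 741 CPM in wild type, with replicate 2 the highest, and to 1360 to 1880 CPM in 5XFAD. In bulk tissue more microglia and more RNA per microglial cell cannot be told apart. None of the markers of B lymphocytes (5), T and NK lymphocytes (7) or mast cells (5) passed the filter. T and NK markers nevertheless summed to 0.968 to 1.5 CPM in 5XFAD at 11 months against 0.0398 to 0.194 CPM in wild type at either age, and 5 monocyte markers to 1.13 to 1.39 CPM against 0.204 to 0.525 CPM. Of the 7 T and NK markers, Cd3d, Nkg7, Klrb1c and Ncr1 were at 0 in all 7 wild-type libraries. Cd3e, Cd3g and Gzma were counted in at least 1 wild-type library at each age. In 5XFAD at 6 months T and NK markers summed to 0.119 to 0.544 CPM, with Gzma at 0, and monocyte markers to 0.318 to 0.544 CPM. Both sums overlapped wild type. Astrocyte markers (6) also separated by genotype, with sums of 1890 to 2030 CPM in wild type and 2400 to 2650 CPM in 5XFAD at 6 months and of 2250 to 3610 and 3870 to 4600 CPM at 11 months. Of these 6, 1 was called higher at 6 months and 2 at 11 months, where 1.30% and 3.80% of all genes tested were. Their median log2 difference was 0.18 and 0.28. The part of these cells in the results was not tested.

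Levels can be compared between genes only per transcript length, in transcripts-per-million (TPM). In wild type at 6 months Tyrobp stood at 82.3 ± 5.79 TPM (SD, n = 4) and Trem2 at 32.1 ± 3.34 TPM, while the other 7 members stood between 0.530 TPM for Btk and 4.88 TPM for Inpp5d. The ranges of Tyrobp, Trem2 and Inpp5d did not touch each other or those of the rest. Next in order came Vav1 at 2.28, Lyn at 1.86, Syk at 1.37, Plcg2 at 1.20 and Cd33 at 1.07 TPM, and each of these overlapped its neighbour. In 5XFAD at 11 months Tyrobp reached 691 ± 136 TPM (n = 3) and Trem2 302 ± 81.7 TPM, and the next gene, Inpp5d, reached 12.3 ± 1.07 TPM. Receptor and adaptor messages were thus far above those of every kinase and effector in both genotypes.

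**Figure D1:**
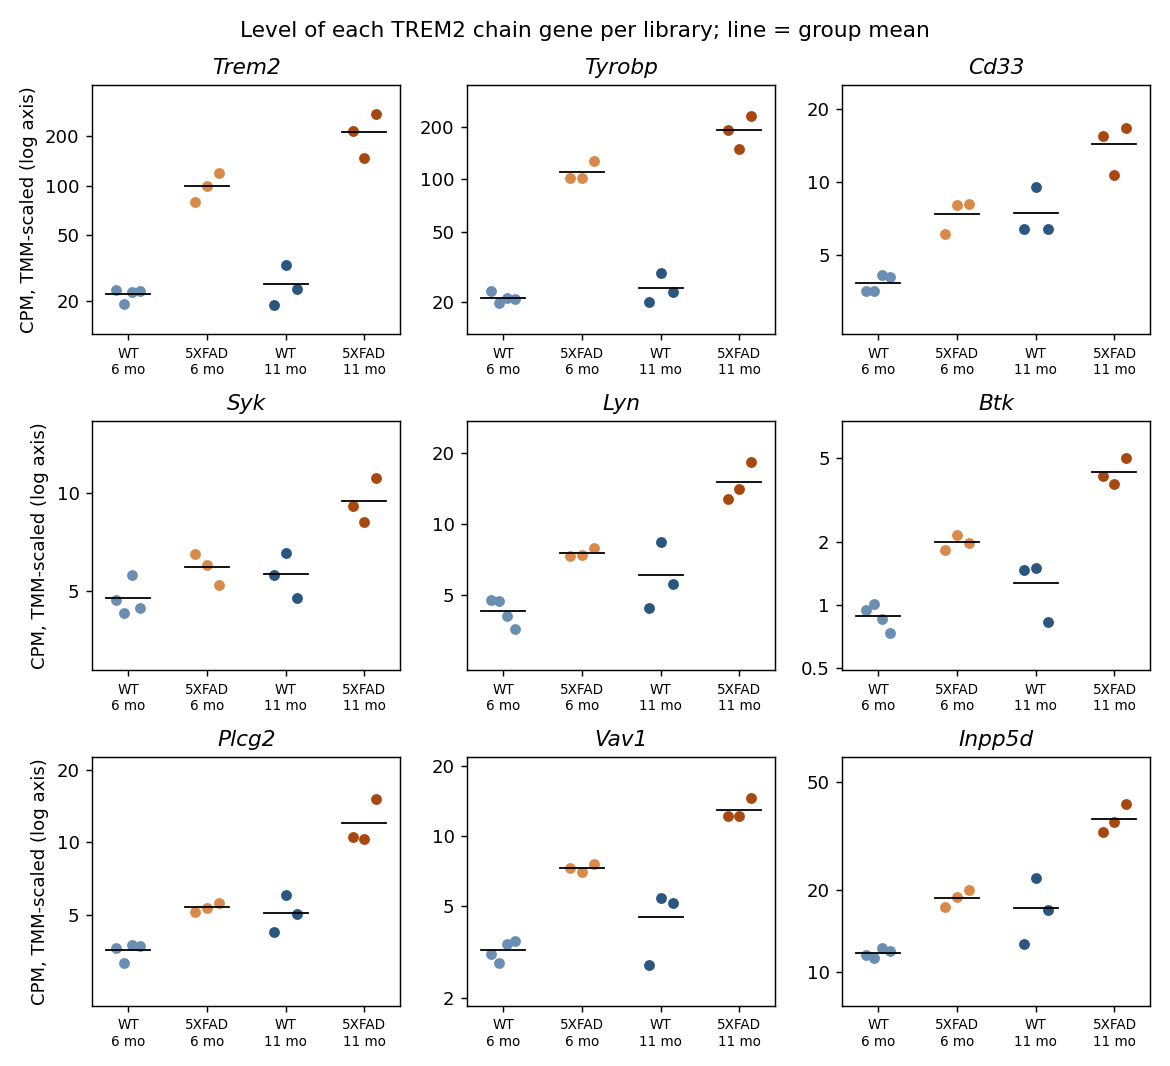
Level of each of the 9 genes in each library, in TMM-scaled CPM on a log axis, by genotype and age, with each point 1 library and the line the group mean. Trem2 and Tyrobp show the widest separation of 5XFAD from wild type, and at 11 months every 5XFAD library lies above every wild-type library for all 9 genes.

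The first comparison asked how the chain differed between genotypes at 6 months. Trem2 and Tyrobp rose about equally and by far more than the rest, by 2.17 ± 0.22 and 2.38 ± 0.15 on the log2 scale (± SE). Vav1, Btk, Cd33 and Inpp5d rose by 0.67 to 1.17, while Syk, Plcg2 and Lyn did not pass the test. Thus 6 of 9 members were called higher, where 1.30% of all genes tested were, and 0 were called lower (0.0172% of all genes). The median log2 fold change of the members was 0.95 against -0.007 over all genes. A call means an adjusted p under 0.05 in edgeR's quasi-likelihood test, with Benjamini-Hochberg adjustment over all 17483 genes. With any 1 of the 7 libraries left out 3 or 4 members were called, always Trem2, Tyrobp and Vav1, and with log2(TPM + 1) values or with male libraries alone the same 3 were called.

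At 11 months all 9 members were higher in 5XFAD, with a median log2 fold change of 1.31 against -0.027 over all genes. Background calls were 3.80% higher and 0.503% lower. No member's libraries overlapped between the genotypes at 11 months, where 10.4% of all genes showed every 5XFAD library above every wild-type library, and at 6 months 8 of 9 did not, against 6.97%. With male libraries alone, where 5XFAD had 1 library at 11 months that was assumed to vary like the other groups, Trem2 and Tyrobp were the 2 members still called at that age.

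Trem2 (ENSMUSG00000023992, GRCm38 chromosome 17, 48346401 to 48354147, plus strand) was measured at 23.3, 19.3, 22.7 and 23.1 CPM in wild type and at 79.9, 99.6 and 118.7 CPM in 5XFAD at 6 months. At 11 months it was 18.9, 33.0 and 23.7 CPM in wild type and 214.0, 147.9 and 271.2 CPM in 5XFAD. The lowest 5XFAD library at either age was above the highest wild-type library. The fold was 4.50 at 6 months (adjusted p = 0.000135) and 8.37 at 11 months (log2 3.06 ± 0.25, adjusted p = 9.89e-06), and Trem2 was called under every alternative tried at both ages.

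Tyrobp (ENSMUSG00000030579, chromosome 7, 30413760 to 30417585, plus strand), which encodes the adaptor, was at 23.0, 19.6, 21.1 and 20.7 CPM in wild type and at 102.3, 101.5 and 126.6 CPM in 5XFAD at 6 months. At 11 months wild type gave 20.0, 29.4 and 22.9 CPM and 5XFAD 192.2, 148.5 and 230.6 CPM. The genotypes did not overlap, and at 11 months the libraries stood in the order they had for Trem2, with wild-type replicate 2 and 5XFAD replicate 3 the highest of their groups. Tyrobp rose 5.22-fold at 6 months (adjusted p = 2.66e-06) and 7.90-fold at 11 months (2.98 ± 0.17, adjusted p = 4.64e-07). It ranked 4 and 6 by p among the 17483 genes.

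The receptor gene Cd33 (chromosome 7, 43524216 to 43544428, minus strand) encodes a sialic acid binding lectin. It was listed as inhibitory after human CD33, which has inhibitory motifs in its tail. Whether the mouse protein acts in the same way was not tested. It stood at 3.56, 3.53, 4.15 and 4.04 CPM in wild type and 6.08, 8.04 and 8.12 CPM in 5XFAD at 6 months. At 11 months the values were 6.38, 9.57 and 6.41 CPM in wild type and 15.5, 10.7 and 16.8 CPM in 5XFAD. Its mean in 5XFAD at 6 months, 7.41 ± 1.15 CPM, was about that of wild type at 11 months, 7.45 ± 1.83 CPM (n = 3 each). The genotype difference was 0.95 ± 0.19 at 6 months (adjusted p = 0.0234) and 0.94 ± 0.20 at 11 months (adjusted p = 0.0123). Both calls ended under several alternatives, among them the fit of the 11-month libraries alone (adjusted p = 0.0922) and sex as a covariate at 6 months (adjusted p = 0.0682).

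**Figure D2:**
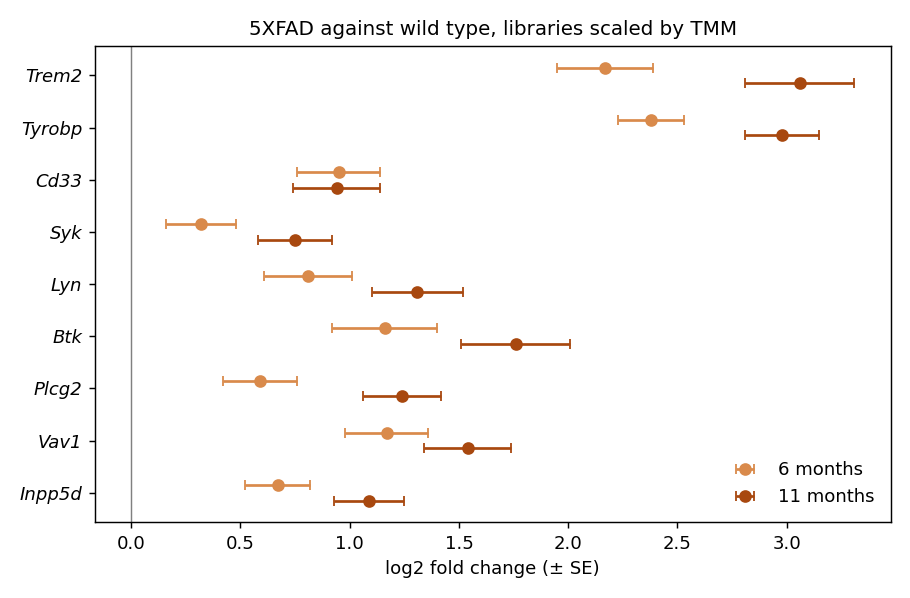
Log2 fold change of each gene, 5XFAD against wild type, at 6 and 11 months, with bars of 1 standard error. Trem2 and Tyrobp stand at 2.17 to 3.06, and the other 7 genes between 0.32 for Syk at 6 months and 1.76 for Btk at 11 months.

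Among the kinases, Syk (chromosome 13, 52583173 to 52648792, plus strand), the kinase that docks on the phosphorylated adaptor, differed least. Its libraries held 4.67, 4.27, 5.59 and 4.41 CPM in wild type and 6.48, 6.01 and 5.21 CPM in 5XFAD at 6 months, and the genotypes overlapped. At 11 months the values were 5.58, 6.54 and 4.75 CPM in wild type and 9.14, 8.15 and 11.2 CPM in 5XFAD, without overlap. The log2 difference was 0.32 ± 0.16 at 6 months (adjusted p = 0.604) and 0.75 ± 0.17 at 11 months (adjusted p = 0.0204). The 11-month call ended without wild-type replicate 1 or 3 or 5XFAD replicate 1 or 3 (adjusted p up to 0.140), and with the 2 groups alone (adjusted p = 0.101).

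Lyn (chromosome 4, 3678115 to 3813122, plus strand) encodes a Src family kinase that can act both for and against the signal. It ran from 3.59 to 4.75 CPM in wild type and from 7.31 to 7.89 CPM in 5XFAD at 6 months, and from 4.38 to 8.36 CPM and 12.8 to 18.4 CPM at 11 months. The 6-month difference of 0.81 ± 0.20 missed the threshold (adjusted p = 0.0745), although the libraries did not overlap and DESeq2 called it (adjusted p = 0.0106). At 11 months it was 1.31 ± 0.21 (adjusted p = 0.00172). An exon of the opposite-strand noncoding gene Gm26857 overlaps an exon of Lyn, and without a stated strand setting the reads of the pair cannot be told apart.

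Btk (chromosome X, 134542336 to 134583570, minus strand), the Tec kinase gene, had the fewest counts, 18 to 25 per wild-type library at 6 months. It was at 0.735 to 1.02 CPM in wild type and 1.83 to 2.16 CPM in 5XFAD at 6 months, and at 0.833 to 1.49 CPM and 3.79 to 5.04 CPM at 11 months. Btk rose by 1.16 ± 0.24 (adjusted p = 0.0257) and by 1.76 ± 0.25 (adjusted p = 0.000536), which at 11 months followed only Trem2 and Tyrobp among the members. The 6-month call ended whichever of the 7 libraries was left out (adjusted p up to 0.111).

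The effector gene Plcg2 (chromosome 8, 117498291 to 117635142, plus strand), whose enzyme makes the second messengers that release calcium, held 3.64, 3.13, 3.72 and 3.72 CPM in wild type and 5.13, 5.33 and 5.6 CPM in 5XFAD at 6 months. At 11 months it held 4.22, 6.02 and 5.04 CPM and 10.6, 10.3 and 15.1 CPM. The groups did not overlap at either age. The difference was 0.59 ± 0.17 at 6 months (adjusted p = 0.163) and 1.24 ± 0.18 at 11 months (adjusted p = 0.000629).

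Vav1 (chromosome 17, 57279100 to 57328031, plus strand), the Rac exchange factor gene of blood lineage cells, was the only downstream member called at 6 months under every alternative. It ran from 2.84 to 3.51 CPM in wild type and from 6.98 to 7.58 CPM in 5XFAD at 6 months, then from 2.79 to 5.41 CPM and from 12.1 to 14.6 CPM at 11 months. Vav1 rose by 1.17 ± 0.19 on the log2 scale (adjusted p = 0.00456) and later by 1.54 ± 0.20 (adjusted p = 0.000341).

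The phosphatase gene Inpp5d (chromosome 1, 87620312 to 87720507, plus strand) held 11.5, 11.2, 12.3 and 11.9 CPM in wild type and 17.3, 18.9 and 20.0 CPM in 5XFAD at 6 months. At 11 months wild type spread from 12.6 to 22.1 CPM and 5XFAD from 32.7 to 41.4 CPM. Its difference was 0.67 ± 0.15 at 6 months (adjusted p = 0.0432) and 1.09 ± 0.16 at 11 months (adjusted p = 0.00073). The 6-month call ended whichever of the 7 libraries was left out (adjusted p up to 0.212) and with sex as a covariate (adjusted p = 0.152).

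Ratios within a library show where members differed in their response. Trem2 over Tyrobp, receptor over adaptor, averaged 0.06 ± 0.08 in wild type and -0.16 ± 0.17 in 5XFAD at 6 months on the log2 scale of counts, and 0.05 ± 0.13 and 0.13 ± 0.12 at 11 months. The genotype difference over both ages was -0.07 (p = 0.417, two-sided exact permutation test of genotype within age, 700 arrangements). Cd33 over Trem2, the receptor listed as inhibitory over the activating one, went from -2.53 ± 0.12 in wild type to -3.74 ± 0.12 in 5XFAD at 6 months. At 11 months the means were -1.75 ± 0.16 and -3.86 ± 0.13. All 6 5XFAD libraries lay below all 7 wild-type libraries, and the difference of -1.66 gave p = 0.00286, the smallest that the exact test allows (adjusted over the 3 ratios, 0.00857). Inpp5d over Syk was higher in 5XFAD by 0.36 (exact permutation p = 0.00857, adjusted 0.0129), with means of 1.32 and 1.67 at 6 months and 1.59 and 1.95 at 11 months. Wild-type and 5XFAD libraries overlapped for that ratio at 6 months.

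Since the microglia markers rose as well, the genotype comparison was repeated with each library scaled on the mean log2 level of the 17 markers in place of TMM. Trem2 and Tyrobp rose beyond the markers, by 1.20 ± 0.19 and 1.42 ± 0.19 at 6 months (adjusted p = 6.3e-05 and 1.06e-05) and by 1.72 ± 0.21 and 1.63 ± 0.21 at 11 months (adjusted p = 3.13e-07 and 3.42e-07). On this scale 0.543% of all genes were called higher at 6 months and 0.961% at 11 months, while 84.1% and 89.6% were called lower, since most genes of the tissue do not follow the microglia markers. Syk, like most genes on this scale, was below the markers, by -0.64 ± 0.24 and -0.62 ± 0.25 (adjusted p = 0.0133 and 0.0211). Its unadjusted p in the same edgeR test was 0.0101 and 0.0183. With so many genes called lower, the adjustment changed p little here. Plcg2, Inpp5d, Cd33, Lyn, Vav1 and Btk lay between -0.40 and 0.39 of the markers at both ages and did not pass the test, although with the median of the markers Vav1 (0.73, adjusted p = 0.0117) and Btk (0.86, adjusted p = 0.028) were called higher at 11 months. With 7 markers not tied to the homeostatic state Inpp5d was called lower at both ages (-0.49 and -0.47), Plcg2 at 6 months (-0.58, adjusted p = 0.0199) and Cd33 at 11 months (-0.65, adjusted p = 0.0106). Trem2 and Tyrobp were called higher under every choice of markers and every library left out, whereas the call of Syk ended at both ages when the median of the markers was used (adjusted p = 0.187 and 0.653), and without wild-type replicate 3 or 5XFAD replicate 3 at 6 months or wild-type replicate 1 at 11 months.

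**Figure D3:**
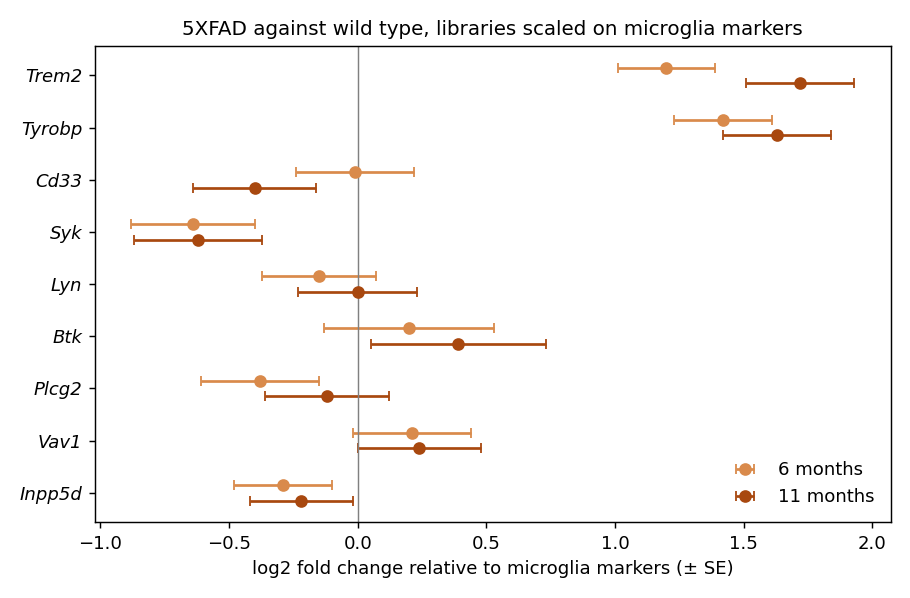
Log2 fold change of each gene, 5XFAD against wild type, with the libraries scaled on 17 microglia markers, at 6 and 11 months, with bars of 1 standard error. Zero means a difference equal to that of the markers. Trem2 and Tyrobp lie at 1.20 to 1.72, Syk at -0.64 and -0.62, and the other genes, which were not called, between -0.40 and 0.39.

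Age was compared within each genotype. These comparisons share groups with the genotype comparisons and are not independent of them. In 5XFAD all 9 members were called higher at 11 than at 6 months, where 4.84% of all genes were (and 2.39% lower), by 0.69 for Syk to 1.16 for Plcg2, and every 11-month library lay above every 6-month library for all 9, as it did for 18.4% of all genes. Plcg2 rose 2.24-fold (adjusted p = 0.00485), Trem2 2.12-fold (adjusted p = 0.0186) and Tyrobp 1.73-fold (adjusted p = 0.0147). All 3 5XFAD libraries at 6 months were male and 2 of 3 at 11 months female. With sex as a covariate 6 members were called, and Trem2 (adjusted p = 0.052), Syk (adjusted p = 0.0757) and Btk (adjusted p = 0.0594) were not. Called higher in the same comparison were 14 of 17 microglia markers, 4 of 6 astrocyte markers, 4 of 5 endothelial markers and 2 of 5 tested markers of border macrophages, whose part in the result was not tested. The number of members called also changed with single libraries: it was 2 without 5XFAD replicate 1 at 6 months or replicate 3 at 11 months, 3 without replicate 2 at 6 months and 5 without replicate 1 at 11 months.

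In wild type 1 of 9 members rose with age, Cd33, by 0.96 ± 0.19 (adjusted p = 0.0255), against 2.42% of all genes called higher and 1.29% lower. Inpp5d came next with 0.55 ± 0.15 (adjusted p = 0.0549), and it was called by DESeq2 (adjusted p = 0.0136), without a filter (adjusted p = 0.0493) and by limma on log2(TPM + 1) (adjusted p = 0.0363), where Cd33 was not (adjusted p = 0.083). Plcg2 followed with 0.52 ± 0.17 (adjusted p = 0.0887). For these 3 genes every 11-month library lay above every 6-month library, as it did for 9.11% of all genes. Trem2 and Tyrobp differed by 0.19 ± 0.22 and 0.19 ± 0.15. The 17 microglia markers had a median difference of 0.51, and 4 of 5 endothelial markers were called higher. The call of Cd33 ended without wild-type replicate 1, 2 or 4 at 6 months or replicate 2 at 11 months (adjusted p up to 0.135) and in the fit of wild-type libraries alone (adjusted p = 0.132). Without replicate 1 at 11 months 5 members were called, and 998 of all genes were called higher, against 423 with all libraries. That library was the female of its group and had its lowest microglia markers, and the part of either was not tested.

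Whether the genotype difference grew with age was tested as an interaction. In edgeR 0 of 9 members were called (adjusted p = 1 for each), 3 had an unadjusted p under 0.05 (Trem2, Tyrobp and Plcg2), and DESeq2 called 0 as well. Only 0.00572% of all genes, 1 gene, were called higher. The estimates were 0.90 ± 0.32 for Trem2, 0.65 ± 0.24 for Plcg2, 0.60 ± 0.22 for Tyrobp and 0.60 ± 0.34 for Btk. That of Cd33 was -0.01 ± 0.28, and its sign changed under several alternatives.

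Further genes of the pathway were examined in 10 lists by role, 100 genes in all, of which 91 were tested. In 5XFAD 19 of the 91 were higher at 6 months and 32 at 11 months, where 1.30% and 3.80% of all genes were. In edgeR 0 were lower at either age (0.0172% and 0.503% of all genes), and 1 and 2 were lower at an unadjusted p under 0.05. DESeq2 called 23 and 34 of the pathway genes higher (1.97% and 5.19% of all genes) and 0 and 1 lower, and limma on log2(TPM + 1) called 10 and 29 higher (0.784% and 2.96% of all genes) and 0 and 1 lower. Of the 91 genes 5 reached the filter's count limit in too few wild-type libraries to have passed without 5XFAD: Cd200r1, Cd300lf, Fgr, Hcst and Lilrb4a. These could be called in 1 direction only, and without them 17 and 29 of 86 genes were higher. Of 5 tested ligand genes, the lectin gene Lgals3 rose by 1.59 ± 0.30 at 6 months and 3.61 ± 0.35 at 11 months, and the apolipoprotein genes Apoe (0.97 ± 0.15) and Clu, which astrocytes also express, rose at 11 months. Treml2, a neighbour of Trem2 in the receptor cluster and the only 1 of 6 family genes tested, rose by 2.04 ± 0.33 and 3.40 ± 0.36. The sheddase genes Adam10 and Adam17, whose proteases release the TREM2 ectodomain, differed by 0.14 to 0.26 and did not pass in edgeR, DESeq2 or limma (1 had an unadjusted edgeR p under 0.05, at 11 months).

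**Figure D4:**
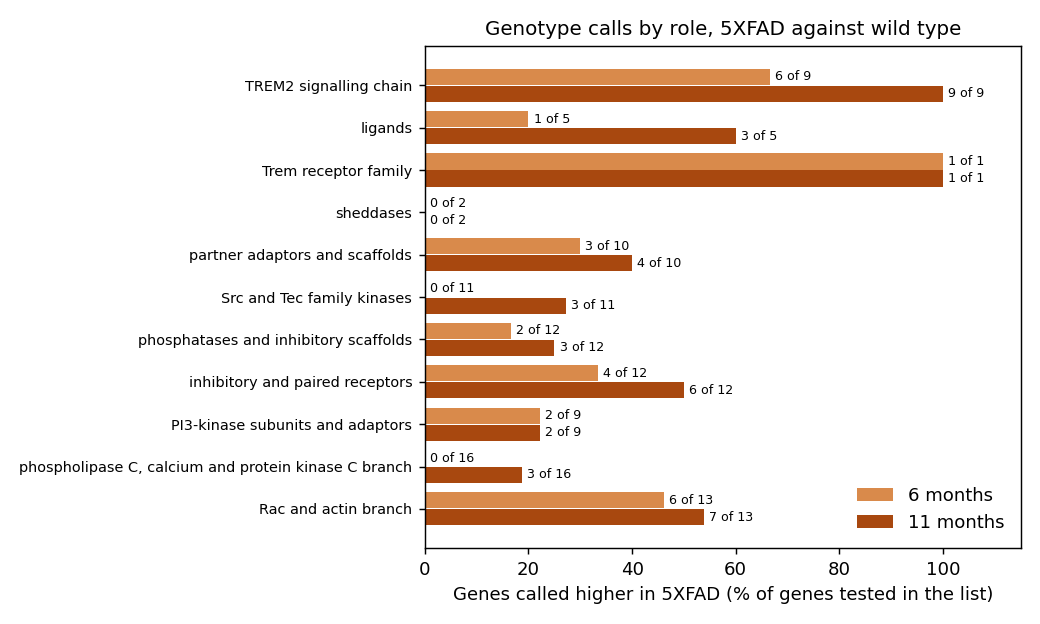
Share of tested genes called higher in 5XFAD at 6 and 11 months, for the 9 chain genes and 10 further lists by role, with the number called of the number tested beside each bar. The Rac and actin list reaches 7 of 13 at 11 months and the phospholipase C list 3 of 16, while 0 of 2 sheddase genes are called, against 1.30% and 3.80% of all genes tested at 6 and 11 months.

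Adaptor and scaffold genes rose in 3 of 10 cases at 6 months and 4 of 10 at 11 months, led by Fcer1g, the signalling chain of Fc receptors, at 1.73 ± 0.13 and 2.31 ± 0.14, with Lat2 (1.48 ± 0.28 at 6 months) and Sh3bp2 (1.25 ± 0.18 at 11 months). Other Src and Tec family kinase genes rose in 3 of 11 cases at 11 months and in 0 at 6 months in edgeR, DESeq2 and limma (3 at an unadjusted edgeR p under 0.05). Tec rose by 1.38 ± 0.29 at 11 months. Fgr, the other gene with the smallest p there, averaged 1.67 CPM in 5XFAD against 0.136 CPM in wild type. It passed the filter only through 5XFAD, and without it 2 of 10 were higher. Of 12 phosphatase and inhibitory scaffold genes 2 and then 3 rose: Ptpn6, which encodes the phosphatase SHP-1, by 1.38 ± 0.19 and 2.16 ± 0.20, Ptprc by 1.60 ± 0.24 and 2.17 ± 0.26, and Dok1 at 11 months. Inhibitory and paired receptor genes rose in 4 and then 6 of 12 cases, or in 2 and then 4 of 9 without the 3 that passed the filter only through 5XFAD. Siglecf rose by 2.12 ± 0.28 and 2.90 ± 0.29. Lilrb4a, 1 of those 3, stood at 0.143 and 0.176 CPM in wild type against 5.12 and 14.9 CPM in 5XFAD at 6 and 11 months, and its close paralogs make its counts uncertain.

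PI3-kinase genes rose in 2 of 9 cases at both ages, the adaptor gene Pik3ap1 (1.16 ± 0.22 and 1.73 ± 0.23) and the subunit gene Pik3cg (0.90 ± 0.20 and 1.34 ± 0.21). In the phospholipase C branch 0 of 16 genes rose at 6 months in edgeR (5 at an unadjusted p under 0.05, and 1 in DESeq2) and 3 at 11 months, among them Rasgrp3 (0.93 ± 0.17) and Card9 (1.36 ± 0.25), with a list median of -0.15 at 11 months. Plcg1, the broadly expressed paralog of Plcg2, stood at -0.21 ± 0.09 and -0.27 ± 0.10 and did not pass. The Rac and actin branch rose in 6 and then 7 of 13 cases, with list medians of 0.70 and 1.19. The actin regulators Apbb1ip (1.11 ± 0.15 and 1.66 ± 0.16) and Arpc1b (0.96 ± 0.13 and 1.33 ± 0.14) had the smallest p of that list. With age in wild type 2 of the 91 pathway genes, Ubash3b and Itpr2, were higher, a share near the 2.42% of all genes, while DESeq2 called 10 (5.85% of all genes) and limma 0 (1.52%). In 5XFAD 24 of 91 were higher with age and 1, Prkcb, lower, against 4.84% and 2.39% of all genes.

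The genes most alike to each member in pattern are given as a description over the 13 libraries. Genes that share a difference by genotype or age have a high r for that reason alone. Differences between the members in r were not tested. Trem2 was most alike to Tyrobp among the members (Pearson r = 0.994) and outside them to Cyba, Cd68 and H2-Oa (r = 0.991 to 0.993). Tyrobp was most alike to Fcer1g, Bcl2a1b and Cd68 (0.990 to 0.991). Inpp5d followed Vsir, Cx3cr1 and Csf1r (0.988 to 0.990), and Lyn followed Csf1r, Itgb5 and Cx3cr1 (0.986 for each). Vav1 was nearest to Laptm5, Ctss and Cebpa (0.987 to 0.990), Plcg2 to Slco2b1, Man2b1 and Unc93b1 (0.981 to 0.987), and Btk was close to Tapbp and Anxa3 (0.977 and 0.976). Cd33 was nearest to Axl (0.990), with Lpcat2 and Arhgap30 at 0.971 and 0.969, and Syk was nearest to Abhd4, Abcb1b and Tln1 (0.970 to 0.971). The lowest r between 2 members was 0.805, between Tyrobp and Syk.

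The deposited tables also give a mean transcript length per gene and library, which moves with the mix of transcripts assigned to the gene. For Trem2 this length was 1169 to 1218 bases in wild type and 1123 to 1132 bases in 5XFAD at 6 months, and 1169 to 1223 and 1124 to 1134 bases at 11 months. All 6 5XFAD libraries were thus shorter than all 7 wild-type libraries, which held for 11 of the 17483 genes (0.0629%) and for no other member. This readout was chosen after its values were seen, and no test was made. In the annotation the protein-coding transcripts of Trem2 have 1088 and 1056 bases, a transcript with a retained intron has 4784 bases and a further processed transcript 526 bases. Which of them changed in share cannot be read from gene totals. The length was fixed for Plcg2 at 4298 and for Btk at 2540 bases, and that of Cd33 spread most among the members, from 3919 to 5728 bases in 5XFAD at 6 months.

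**Figure D5:**
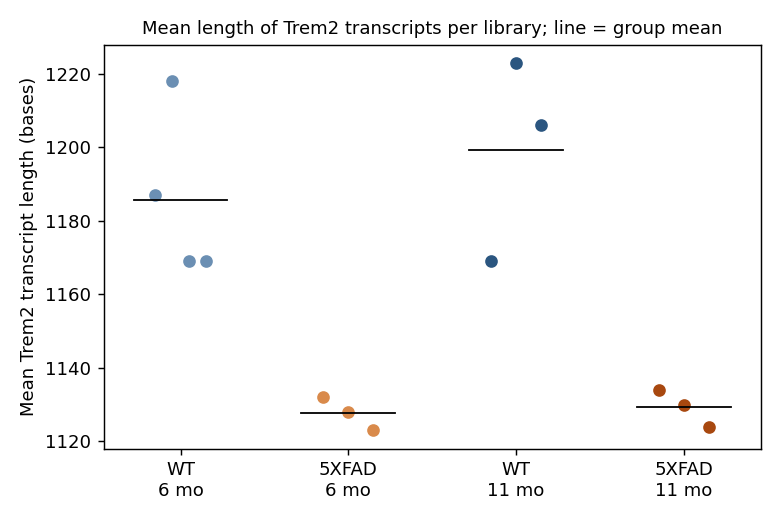
Mean length of the transcripts assigned to Trem2 in each library, in bases, by genotype and age, with each point 1 library and the line the group mean. The 6 5XFAD libraries lie between 1123 and 1134 bases and the 7 wild-type libraries between 1169 and 1223 bases.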

How the data were processed

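RNA sequencing of frontal cortex was read from 13 deposited gene tables, grouped by library title, with replicates numbered in accession order, so that equal numbers pair nothing. The submitters' processing notes name STAR 2.7.1, RSEM and the build GRCm38. For RSEM's version, its annotation and its strand setting nothing is given in the sources used here. Expected counts, deposited for each gene, were estimated by the authors from the aligned reads, per the file headers; 7.24% to 7.71% of them per library were not whole, and all were rounded. The deposited TPM values, scaled by the authors' quantifier for length, gave levels between genes and 1 alternative; the deposited mean transcript lengths in bases, from the same quantifier per the file headers, were described, and the authors' FPKM column was not used. All 55536 identifiers matched GENCODE M21 (GRCm38); promoter sequences are from RefSeq on GRCm38.p6.

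Genes passed filterByExpr (minimum count 10, total 15), libraries were scaled by TMM, and 1 model with 4 group means over 13 libraries was tested with the robust quasi-likelihood test of edgeR 4.0.16 in R 4.3.3, adjusted over 17483 genes; the comparisons thus have a common dispersion estimate. Standard errors are the unshrunken log2 fold change over the square root of the F statistic. Counts were simulated for these 17483 genes, with the changed genes drawn only from those with a mean above 1 CPM. For genotype at 6 months 81% of 100 genes changed 2-fold and 96% of 100 changed 4-fold were recovered, and 70% and 93% at 11 months. Unchanged genes called numbered 8 and 16. Recovery of genes at a lower level was not tested. No pair of libraries was alike within sampling noise (78 pairs, chi-square per gene at least 6.3). Alternatives were RLE scaling, no filter, DESeq2 1.42.0, limma 3.58.1 on log2(TPM + 1), fits of 2 groups, sex as a covariate, male libraries alone and each library left out. Named genes were the 9 members, up to 2 genes per pathway list and comparison by p among those called, and the 3 genes outside the members with the highest Pearson r to each member (mean of at least 1 CPM, named genes), of which 1 is not reported here; Clu, Dok1, Plcg1, Adam10, Adam17, Ubash3b, Itpr2 and Prkcb were named after their values were seen. Members, lists and markers were chosen with earlier results of these data known. Depth was like in all libraries. Intervals from counting alone are not given, since they leave out the spread between libraries. Whether that spread exceeded counting noise was not tested gene by gene.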

Additional observations from a re-analysis of the deposited data

Results flagged for a closer look

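In wild type at 6 months the library of replicate 2 lay below the other 3 for 2 members, with 474 counts against 566 to 586 for Trem2. For Plcg2 that library had 77 counts against 89 to 96. For Trem2 it held 19.3 CPM against 22.7 to 23.3 CPM, a gap of 0.859 of the group's range, and for Plcg2 3.13 CPM against 3.64 to 3.72 CPM, a gap of 0.867 of the range. Both exceed Dixon's 95% critical value for 4 samples, which chance passes in about 1 of 20 groups, and 9 members were examined. The part of counting noise in these gaps was not tested. Without that library the log2 fold change at 6 months was 2.11 for Trem2 and 0.53 for Plcg2.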

How the results depend on the processing

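Trem2 and Tyrobp kept their genotype calls in all alternatives at both ages (log2 fold changes from 2.02 to 3.31 and from 2.23 to 3.15), and Vav1 kept its call at 6 months. Members called higher at 6 months numbered 3 with log2(TPM + 1) values or male libraries alone, and at 11 months 2 with male libraries alone. In wild type over age members called numbered 2 without a filter, 2 with DESeq2 and 0 with the 2 groups alone. On the log2(TPM + 1) scale the genotype comparison had medians over all genes of -0.107 (6 months) and -0.118 (11 months), so its member values sit on a lowered base.

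Genes called over all were 384 (DESeq2) or 101 (male libraries) at 6 months against 231, and 443 (2 groups alone) or 108 (male libraries) at 11 months against 753. For age in wild type they were 1843 (DESeq2), 296 (TPM), 1 (2 groups alone) or 345 (sex covariate) against 649, and for age in 5XFAD 2063 (DESeq2), 825 (TPM) or 2610 (2 groups alone) against 1264. For the interaction they were 30 (DESeq2) or 4 (TPM) against 1. DESeq2 called 345 genes higher and 39 lower at 6 months and log2(TPM + 1) 137 and 37; at 11 months these were 908 and 220, and 518 and 338.

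With 1 library left out, genes called ranged from 134 to 205 and from 424 to 840 for genotype at 6 and 11 months, from 0 to 1921 for age in wild type, from 97 to 798 for age in 5XFAD and from 1 to 3 for the interaction. Members higher ranged from 3 to 4, 7 to 9, 0 to 5, 2 to 9 and 0 to 0. Relative to the microglia markers, genes higher ranged from 78 to 91 and from 134 to 199, members higher from 2 to 2 and 2 to 3, and members lower from 0 to 1 at both ages. The ratios ranged from -0.10 to -0.02 for Trem2 over Tyrobp, from -1.70 to -1.62 for Cd33 over Trem2 and from 0.26 to 0.42 for Inpp5d over Syk.

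Relative to the microglia markers, 7 markers not tied to the homeostatic state gave 3 members lower at each age; the median of the markers gave 0 lower at each age, and at 11 months 4 members and 265 genes higher. Signs turned, none with a call, for Vav1 at 11 months with the 7 markers (-0.02), and with the median for Cd33 (0.27) and Lyn (0.13) at 6 months and Plcg2 (0.37), Inpp5d (0.27), Cd33 (0.09) and Lyn (0.48) at 11 months. Left-out libraries gave Cd33 at 6 months -0.09 to 0.10 and Lyn at 11 months -0.07 to 0.08 on that scale. The interaction of Cd33 was 0 with RLE, 0.02 without a filter, 0 with DESeq2, 0.18 with TPM and -0.14 to 0.21 with 1 library left out; Trem2 over Tyrobp was 0 with log2(TPM + 1), and age in wild type for Trem2 ranged from -0.05 to 0.36 with 1 library left out. The cause was not tested, except that fits with fewer libraries have less power by construction. The planned split of sexes at 1 CPM of Xist did not part the 2 levels seen and was not run. The split at 100 CPM and the fit of male libraries alone were chosen after seeing the data. No paired analysis was possible because the labels give the groups no shared replicate numbers. Depth limits Btk most.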
